A study of Schizosaccharomyces pombe with 2 samples.

Results

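In fission yeast (Schizosaccharomyces pombe), the genes ste11, mei2, mei3, mei4, ste4, ste7, rep1, rem1, isp3 and pat1 mark the switch from growth to mating and meiosis. Spots carrying 9 of these 10 names were found on the arrays, out of 4952 named gene features, and pat1 was printed under its older name ran1. No spot carried the name mei4, the gene of the forkhead factor of mid meiosis, which is not analysed here. Each of the 9 genes had 2 spots, so 18 spots on each array were read. The genes were chosen by name, with the mutant over wild-type ratios of these same arrays already known, so their own ratios are given as a description and are not tested as a group.

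The study set 2 strains against each other directly on 2 spotted DNA arrays: a double mutant of the corepressor genes tup11 and tup12, which the labels call Tup11,12D, and WT. The D was read as deletion of both genes. Cultures of both strains were in logarithmic growth in rich medium, and YES and 30 degrees were named in the label of the mutant RNA of array 1. On array 1 Cy3 marked the mutant and Cy5 the wild type, whereas array 2 had the opposite dyes and RNA from another preparation (n = 2). The labels give neither the mating type of the strains nor whether they were haploid.

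Which strain a channel of the scanner tables held was not stated in the file headers. The first channel was taken to hold the mutant throughout, a likely but not certain reading, because the mutant is named first in the titles and the authors' deposited log ratios placed the first channel on top. The sample label of array 2 gives the mutant as channel 2, and how that order relates to the scanner channels was not stated. Read the other way on both arrays, every sign below would turn. If array 2 alone were turned, the signs of that array would change. Median gene signals of the 4 channels lay between 1338.25 and 4236.25, and between 70.1% and 79.7% of gene spots stood well above background, a limit set by the 95th percentile of bacterial control spots in the same channel. The spots named tup1 fell 4.32-fold in Tup11,12D (log2 ratio -2.11 ± 0.36, SD, n = 2, limma adjusted p = 0.00029), and the feature of tup11 stood at 0.95 on array 1 and -0.11 on array 2. Each gave clear signal in mutant and wild type alike, so the deletions were not verified by these features. The feature tup1 had no match in the gene table used here.

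The switch works as a chain of regulators. Starvation releases Ste11, a transcription factor of the high-mobility-group family, which turns on genes of mating and the gene mei2. Mei2 binds RNA and is required for cells to begin meiosis, and the kinase Pat1 holds both Ste11 and Mei2 in check during growth. In diploid cells that express both mating types, Mei3 inhibits Pat1. Mei2 then withholds Mmi1, a protein that sends meiotic transcripts for destruction in growing cells.

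Of the 9 genes, 5 were called higher in the mutant, none was called lower and 4 were not called. A call is a limma adjusted p under 0.05 over all 4809 features with a value on both arrays. Of all these features 2.43% were called higher and 1.02% lower, and because the genes were chosen with this contrast known, nothing is read from the difference. The called genes were mei2, isp3, ste7, rem1 and ste11. Of these, isp3, ste7 and rem1 had wild-type means below the background limit on both arrays, so their folds are given as lower bounds and the 5 are not ranked by size. The genes pat1, rep1, mei3 and ste4 were not called. The mean log2 ratios ran from 0.11 in ste4 to 2.79 in mei2, with a median of 0.94 against 0.01 for all tested features.

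**Figure D1:**
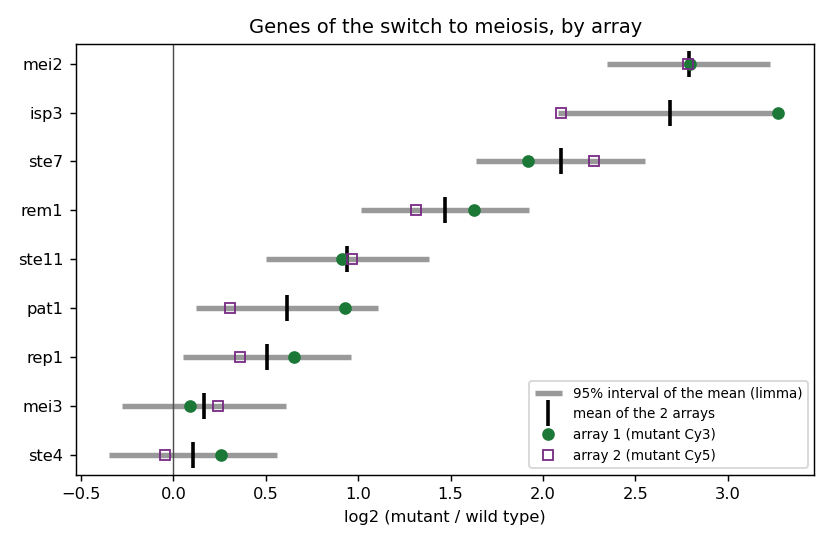
Log2 ratios of mutant over wild type (horizontal axis) for 9 genes, with array 1 as filled circles, array 2 as open squares, the mean as a black tick and its 95% limma interval as a grey bar. In mei2 and ste11 the arrays nearly coincide, while in isp3 and pat1 they lie apart, and the array 2 value of ste4 is below 0.

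The master regulator ste11 was bright in both strains. On array 1 its spots had signals of 3156.5 and 3658 above local background in the mutant, against 4131.5 and 4956.5 in the wild type. On array 2 they had 22246 and 6869.5 in the mutant and 7027.5 and 2967 in the wild type. All of these signals passed the background limit of their channel. The channels of an array differ in dye and overall brightness, so these signals show strength over background and not the ratio between strains, which is taken after normalisation.

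After normalisation ste11 stood at 0.91 on array 1 and 0.97 on array 2, a mean log2 ratio of 0.94 ± 0.04 (SD, n = 2), or 1.92-fold higher in the mutant. The mutant was the higher strain on both arrays and at every spot, with spot ratios of 0.95 and 0.88 on array 1 and of 1.19 and 0.74 on array 2. On array 2 the first spot was the brighter one in both strains and also gave the higher ratio. The SD of the means is therefore smaller than the spread between spots of one array, and the 95% interval from the fit, 0.50 to 1.38, draws on the spread pooled over all features. In rank, ste11 was the 106th highest of 4809 features. Its call was lost in 4 of 10 other settings: with plain background subtraction, median centring, the authors' deposited values, and the second printed set alone.

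The gene mei2 is a direct target of Ste11. Its mean ratio was the highest of the 9 as reported, but isp3 stood above it with plain background subtraction (3.54 against 2.89), with offset 0 (2.84 against 2.81) and with the authors' deposited values (4.71 against 2.80), and on array 1 alone (3.27 against 2.79). In the mutant its spots had signals of 13783.5 and 14231 above background on array 1, against 4964.5 and 4276.5 in the wild type. On array 2 the mutant gave 16666.5 and 22820.5 and the wild type 1658.5 and 2149. Both strains passed the background limit at all spots, and mei2 is the only called gene besides ste11 for which that holds.

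The log2 ratio of mei2 was 2.79 on array 1 and 2.78 on array 2, with a mean of 2.79 ± 0.01 (SD, n = 2), or 6.91-fold higher in the mutant, and rank 11. Its 4 spots gave 2.67, 2.92, 2.73 and 2.84, so the near identity of the array means is closer than the spots themselves. The 95% interval was 2.35 to 3.23. Under 10 other settings the fold lay between 6.28 and 7.48, and its span on the log2 scale was the narrowest of the 5 called genes. The fold of ste11 ran from 1.75 to 2.10 under the same settings.

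Pat1, the kinase that restrains both proteins, has a gene that was dim on these arrays. Its mutant signal passed the limit on array 1, at a mean of 602.25 over the 2 spots, and did not on array 2, at 576.75, while the wild type passed on neither, at 1530.5 and 72. The log2 ratio was 0.93 on array 1 and 0.30 on array 2 (mean 0.62 ± 0.44, SD, n = 2), and pat1 was not called. Its spots disagreed on array 1, at 1.49 and 0.37. No fold is given for pat1.

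Mei3, the inhibitor of Pat1, exceeded the background limit in every channel. In the mutant it averaged 2089.5 on array 1 and 2848.75 on array 2, and in the wild type 5168.25 and 1740.25. Its log2 ratio was 0.09 on array 1 and 0.24 on array 2, with a mean of 0.16 ± 0.11 (SD, n = 2) and a 95% interval of -0.28 to 0.61. The mean of ste11, 0.94, lies above that interval, but the interval of ste11, 0.50 to 1.38, overlaps it. Whether ste11 and mei3 differ in ratio was not tested. Unlike pat1, rep1 and ste4, mei3 was thus not called although both strains gave clear signal.

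**Figure D2:**
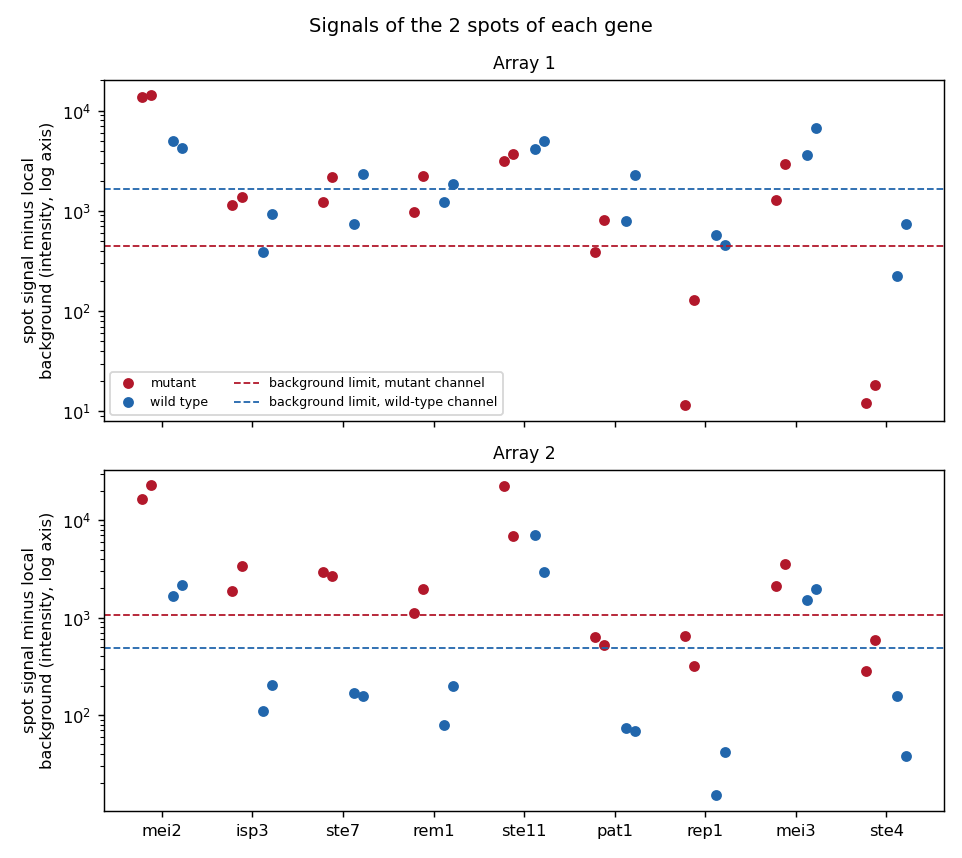
Spot signals minus local background (vertical log axis, scanner intensity) for the 2 spots of each gene on array 1 (top) and array 2 (bottom), with the mutant in red left of the wild type in blue and dashed lines at the background limit of each channel. In both strains mei2, ste11 and mei3 stand above the limit of their own channel, whereas rep1 and ste4 lie below it. Channels differ in dye brightness, so red and blue heights are not ratios.

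The genes ste7 and ste4 take part in mating. The gene ste7 encodes an arrestin-family protein needed for conjugation and meiosis, and ste4 encodes an adaptor of the Byr2 kinase in the pheromone pathway. In the mutant ste7 had spot signals of 1217 and 2161 on array 1 and of 2934.5 and 2700 on array 2, all above the limit. In the wild type it had 743 and 2321 on array 1 and 170 and 157 on array 2, and a single one of these 4 spots passed. The mutant signal was thus clear on both arrays, and the wild-type mean passed on neither.

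The log2 ratio of ste7 was 1.92 on array 1 and 2.27 on array 2, a mean of 2.10 ± 0.25 (SD, n = 2), with rank 23. With the dim wild type set to the lowest signal that passed the limit where its own was lower, the mutant was at least 3.96-fold higher, against a fitted fold of 4.27. Such a bound belongs to the reported setting, and it covers the dim channel and not the spread of the arrays. The spots of array 1 lay 1.13 apart on the log2 scale, at 2.48 and 1.35, and the lower ratio came from the spot whose wild-type signal passed the limit. Over all features with 2 used spots on array 1, the median distance between spots was 0.29. The fold of ste7 ran from 2.69 with mean signals to 6.23 with plain background subtraction.

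The gene ste4 passed the background limit in neither strain on either array. Its mutant spots had 12 and 18.5 above background on array 1 and 281 and 590.5 on array 2, and its wild-type spots had 226 and 735 on array 1 and 159 and 38.5 on array 2. No fold is given. The fitted log2 ratio of 0.11 ± 0.21 (SD, n = 2) rests on normalisation that shifted the raw log2 ratio by 5.03 on array 1 and by -2.42 on array 2, and its sign turned under 3 of 9 other settings, among them median centring (-0.46).

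Premeiotic genes came next. Rep1 is a zinc-finger partner of the MBF transcription factor that is used before the DNA synthesis of meiosis, and Rem1 is a cyclin of meiosis. The name rep1 is also an older name of mrs6, which had a feature of its own under its systematic name, so the rep1 feature was taken as the MBF partner. It passed the background limit in neither strain, with mutant spots of 11.5 and 129.5 on array 1 and 644 and 319.5 on array 2, against wild-type spots of 572 and 452.5 on array 1 and 15 and 42 on array 2. Its log2 ratio of 0.65 on array 1 and 0.36 on array 2 (mean 0.51 ± 0.21, SD, n = 2) was not called, and it turned to -0.03 with median centring. No fold is given for rep1.

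The cyclin gene rem1 gave mutant signals of 977 and 2212 on array 1 and 1109 and 1981.5 on array 2, and all passed. The wild type had 1225 and 1857.5 on array 1 and 79 and 199 on array 2, of which 1 spot passed, on array 1. Its log2 ratio was 1.63 on array 1 and 1.31 on array 2, a mean of 1.47 ± 0.22 (SD, n = 2). The mutant was at least 2.49-fold higher, against a fitted fold of 2.77. The call of rem1 was lost in 2 of 10 other settings, median centring (1.58) and the authors' deposited values (1.86), although its mean was higher there than reported. With mean signals the fitted fold was 2.09, below the bound of the reported setting, and the call was kept.

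The spore gene isp3 encodes a protein of the outermost layer of the spore. In the mutant it had 1136 and 1366 above background on array 1 and 1861 and 3361.5 on array 2, and in the wild type 391 and 937 on array 1 and 110 and 203.5 on array 2. Every mutant spot passed the limit and no wild-type spot did. The second spot of array 1 carried a quality code of 3 and was left out, so array 1 rests on 1 spot.

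The log2 ratio of isp3 was 3.27 on array 1 and 2.10 on array 2, a mean of 2.68 ± 0.83 (SD, n = 2), with rank 12. The mutant is given as at least 4.08-fold higher, with no exact fold because no wild-type spot passed the limit. With the spot of code 3 kept, the mean was 2.43. In the authors' deposited table the log10 ratio was 2.01 on array 1 and 0.83 on array 2. The mean of isp3, which could be computed under 9 other settings, ran from 1.84 with mean signals to 4.71 with the deposited values. It was positive in each. With mean signals the fitted fold was 3.58, below the bound of the reported setting.

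**Figure D3:**
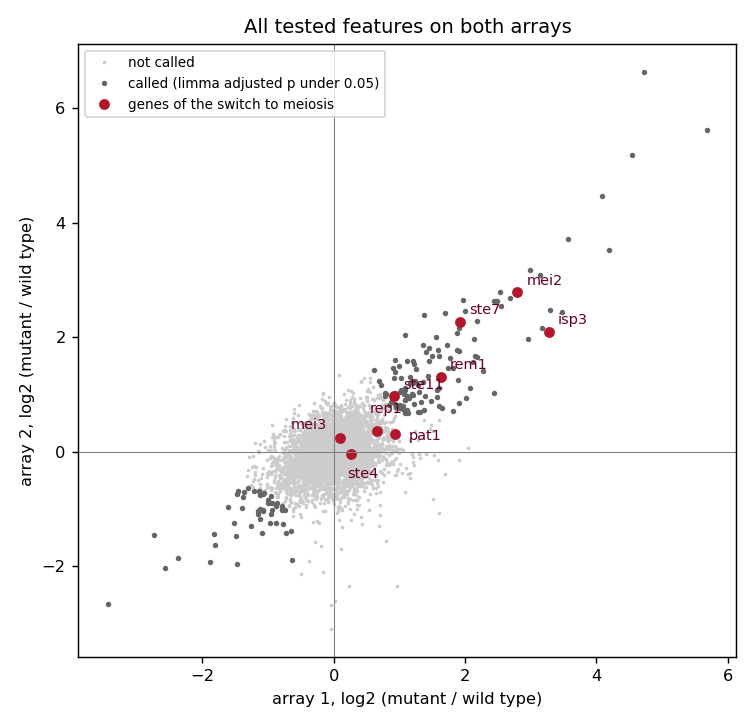
Log2 ratios of mutant over wild type of all 4809 tested features on array 1 (horizontal) and array 2 (vertical), with called features in dark grey and the 9 genes of the switch in red. The genes mei2, isp3, ste7, rem1 and ste11 lie among the called features of the upper right, and mei3, ste4, rep1 and pat1 lie in or at the edge of the central cloud.

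Over all 4809 tested features the log2 ratios of the arrays correlated at 0.55 (Pearson) and 0.34 (Spearman). Agreement between arrays varied among the called genes, and a call itself favours genes whose arrays agree. The SD over the arrays was 0.01 in mei2 and 0.04 in ste11, and 0.83 in isp3. The genes adjacent to the members in the ASM294v3 gene table, used for gene order alone, were read as well. Of 18 adjacent genes 17 were measured, 1 was called higher and none lower, with a median log2 ratio of 0.01. Over all tested features 2.43% were called higher and 1.02% lower, and nothing is read from the count of neighbours called. The called neighbour was pfl8, beside isp3, at 1.09 on array 1 and 1.08 on array 2, and it encodes a flocculin-like cell surface protein. The neighbours of ste11 were cyc3, at -0.38, and ppk25, at 0.30, and those of mei2 were grp1, at 0.01, and omt2, at -0.16, none of them called.

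By distance over the log2 ratios of the 2 arrays, the features most like ste11 were SPBC3H7.05c (distance 0.02), the citrate synthase gene cit1 (0.06) and mam4 (0.10). Those most like mei2 were mug14 (0.15), the flocculin gene gsf2 (0.26) and the transporter gene str3 (0.35). All 6 were called higher. The measure rests on 2 arrays and therefore says little beyond a ratio of similar size.

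The genes around the switch were read from 12 lists, chosen with earlier results of these arrays known, which held 122 features in all. Of these 8 rose (6.56%) and none fell, against 2.43% higher and 1.02% lower over all tested features, and because the lists were chosen with results known nothing is read from the difference. The median log2 ratio was 0.14, against 0.01 for all tested features. Downstream of Ste11, 4 of 17 pheromone pathway genes rose: rgs1, which encodes a regulator of G-protein signalling, mam1, which encodes the exporter of the M-factor pheromone, gpa1, which encodes the G-protein alpha subunit, and mam4, which encodes the methyltransferase of M-factor. They stood at 1.68 ± 0.13, 1.64 ± 0.05, 1.22 ± 0.07 and 0.87 ± 0.0021 (SD, n = 2 each), with limma adjusted p of 0.00088, 0.000951, 0.00682 and 0.0406. The call of mam4 was lost in 5 of 10 other settings, plain background subtraction (adjusted p = 0.138), offset 0 (0.0521), median centring, the authors' deposited values (0.25) and the first printed set (0.371). That of gpa1 was lost in 3, plain background subtraction, median centring and the deposited values, and those of rgs1 and mam1 in 2 each, median centring and the deposited values. The other 13 did not pass, among them fus1, which encodes the formin of cell fusion and stood at 0.19 ± 0.27 (SD, n = 2). The list median was 0.36.

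Some of these genes are markers of mating type. The list drawn for M-type cells held 8 genes, but its member ste6 is not specific to that mating type. Of the 8 genes 5 were measured. Of these mam1 and mam4 rose, while mam2, ste6 and mam3 stood at 0.70, 0.46 and -0.01 without passing. The summed normalised signal of the 5, ste6 included, was 15333 on array 1 and 18799 on array 2 in the mutant. In the wild type it was 6840 and 7619. Of the 5 genes 3, among them ste6, were above background in each channel. Most of that sum was mam1. Without mam1, and with ste6 still included, the sum was 4802 and 5291 in the mutant, against 3385 and 3380 in the wild type. The gene of the M-type factor Mc, printed as matmc and chosen after its value was seen, passed the background limit in every channel and stood at 0.07 on array 1 and 0.04 on array 2, without passing the test. Of the P-type markers map1, map2 and map3 none passed, at 0.02, 0.28 and -0.25. Their summed signal was 3666 and 3730 in the mutant and 3938 and 3274 in the wild type. Of these 3 genes 1 was above background in the mutant on each array, against 1 and 2 in the wild type. Whether mating type differs between the strains, and what part it has in these ratios, was not tested.

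Upstream of ste11, the cAMP pathway restrains ste11 through protein kinase A. Of 14 genes of that pathway cgs1, which encodes the regulatory subunit of the kinase, rose by 0.96 ± 0.38 (SD, n = 2, limma adjusted p = 0.0404) and 13 did not pass. Its phosphodiesterase gene cgs2 stood at 0.92 ± 0.53 (limma adjusted p = 0.0603) and the catalytic subunit gene pka1 at 0.84 ± 0.12 (limma adjusted p = 0.0512). Of the 14 genes 8 were above 0 on both arrays, against 30.2% of all tested features, with a median of 0.30. Over all tested features 2.43% were called higher and 1.02% lower. The upstream lists were chosen with results known, so nothing is read from their counts. The call of cgs1 was lost in 5 of 10 other settings, plain background subtraction (adjusted p = 0.179), offset 0 (0.0546), median centring, the authors' deposited values (0.324) and the second printed set (0.226). None of 6 stress kinase genes passed, with win1, a kinase gene at the head of that cascade, farthest from 0 at 0.56. None of 7 TOR pathway genes passed either, with rhb1, which encodes a Rheb GTPase, at -0.56. Among 13 other regulators of Ste11 or Mei2 none passed. Farthest from 0 was msa1, which encodes an RNA-binding repressor of sexual differentiation, at 0.75 ± 0.21 (SD, n = 2, limma adjusted p = 0.0832). The regulators rad24 and cpc2 had nearly the same ratios, 0.49 and 0.50 on array 1 and -0.20 each on array 2. Both had very high mean log2 signals, 16.1 in the mutant and 15.9 in the wild type. Whether their spots were saturated was not examined.

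Downstream of Mei2, no gene of the later lists was called, against 2.43% of all tested features called higher and 1.02% lower. Of 10 genes of the Mmi1 elimination machinery, 7 were below 0 on both arrays and none was above 0 on both, with a median of -0.28. Of all tested features, 29.7% were below 0 on both arrays and 30.2% above 0 on both. The genes red1, pla1 and ars2 were above background in neither strain, and red5, mtl1 and rmn1 in the wild type alone. The farthest was rmn1, an RNA-binding member of that machinery, at -0.58 ± 0.02 (SD, n = 2, limma adjusted p = 0.173). The gene mmi1 itself stood at -0.06. Of 9 meiotic transcripts that Mmi1 removes none passed, with a median of 0.03 and with mcp5, which anchors dynein at the cell cortex in meiosis, at 0.42.

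The later premeiotic, meiotic and spore lists held no call either, where 2.43% of all tested features were called higher and 1.02% lower. In lists this short such shares leave room for few calls or none, and nothing is read from their absence. None of 10 genes of the MBF factor and its targets passed (median 0.04), and suc22, the small subunit of ribonucleotide reductase, was farthest from 0 at -0.58. None of 13 genes of meiotic chromosomes and recombination passed (median 0.15), with rec12, which makes the double-strand breaks of meiosis, at 0.42. None of 8 targets of Mei4 passed (median 0.22). Among them mde7 stood at 1.51 on array 1 and -0.82 on array 2, with a mean of 0.35 that turned to -0.02 with median centring and -0.04 with mean signals. None of 12 genes of the spore membrane and spore wall passed (median 0.09), with spo15, which is needed to build the spore membrane, at -0.63.

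Some genes of these lists were dim. Of the 13 recombination genes 4, of the 9 Mmi1 transcripts 3, of the 10 Mmi1 machinery genes 3, of the 10 MBF genes 2, of the 8 Mei4 targets 1 and of the 12 spore genes 1 were above background in neither strain on either array, as were 3 of the 17 pheromone genes. The other genes of the later lists passed the limit in at least 1 channel and were not called either. The smallest absolute log2 ratio among all called features was 0.84, and the largest among features not called was 1.56, so size alone did not decide a call.

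The isp genes were first found together by their induction during sexual development. Of the 4 others beside isp3, 3 rose: isp4, which encodes an oligopeptide transporter, isp6, which encodes a vacuolar protease, and isp5, which encodes an amino acid permease. The mean log2 ratios were 1.83 ± 0.07, 1.29 ± 0.10 and 1.01 ± 0.43 (SD, n = 2 each), with limma adjusted p of 0.000482, 0.00506 and 0.0361. The call of isp5 was lost in 4 of 10 other settings, plain background subtraction (adjusted p = 0.0968), median centring, the deposited values and the first printed set (0.343). That of isp6 was lost in 3, plain background subtraction (0.0762), median centring and the deposited values, and that of isp4 in 2, median centring and the deposited values. The wild-type signal of isp4 did not pass the background limit on either array. Under the reported setting isp4 is therefore given as at least 3.05-fold higher. With mean signals its mean log2 ratio was lower, at 1.45. The gene isp7 stood at 0.40 and did not pass. The list median was 1.15, against 0.01 for all tested features, of which 2.43% were called higher. Because the isp list too was chosen with results known, nothing is read from the difference.

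**Figure D4:**
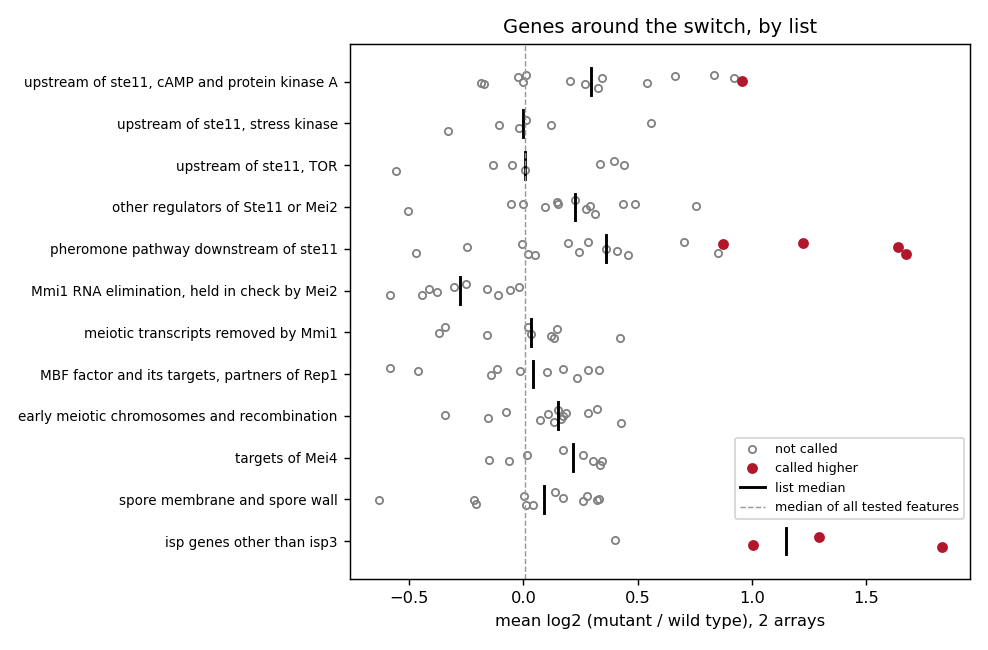
Mean log2 ratio of mutant over wild type over the 2 arrays (horizontal axis) for 122 features in 12 lists of genes around the switch, with called features in red, others open, list medians as black ticks and the median of all tested features as a dashed line. Called features occur in the cAMP, pheromone and isp lists; every measured gene of the Mmi1 machinery lies below 0.

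**Figure D5:**
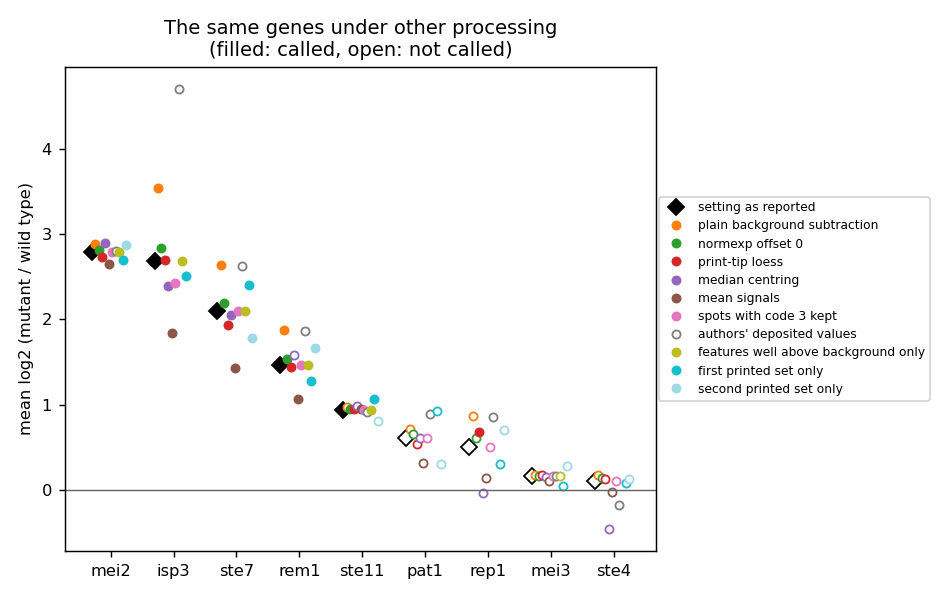
Mean log2 ratio of mutant over wild type (vertical axis) of the 9 genes under the reported setting (diamond) and 10 other settings, with filled symbols for called and open symbols for not called. Values of mei2 and ste11 stay close together, those of isp3 spread most, and the authors' deposited values give no call.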

How the data were processed

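Tup11,12D and WT RNA were hybridised together on 2 spotted arrays with swapped dyes. The authors deposited scanner tables of spot intensity, as means and medians of signal and local background for 2 channels, together with a quality code whose meaning is not given in the sources used here; per the file headers these codes are stored under a column called flag, in units other than intensity. Neither the image software nor the scanner is named there. The authors also deposited log10 ratios normalised by Lowess, per the series' design text. Scale, centring and direction were read from the values: they correlated with the log10 of the first over the second channel at 0.96 on array 1 and 0.89 on array 2, had medians of -0.01 and 0.02, and had a floor of -2, whose values were left out.

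Background was removed from the median signals by normexp (offset 50), and a single loess per array followed, giving weight 0 to controls and to code 3. Spots of code 3 were left out and the spots of a name were averaged. The log2 mutant over wild-type ratios went into limma 3.58.1 in R 4.3.3 (lmFit, eBayes) over 4809 features with a value on both arrays, with Benjamini-Hochberg adjustment. With 1 residual degree of freedom, 9.09 of the 10.1 total degrees came from the spread pooled over features. The fit was tested on simulated data. A gene was well above background where its mean net signal passed a limit, the 95th percentile over 96 aceF and kdtA control spots. For bounds, signals per channel came from loess and Aquantile. The number of arrays limits the precision, and nothing says whether the RNA preparations came from separate cultures. The ASM294v3 gene table supplied names (3394 features by systematic name, 907 by symbol, 341 by synonym, 167 unmatched). No sequence was used.

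The members and lists were chosen with earlier results of these data known. Named were every member, every list gene that passed and the gene farthest from 0 in a list without a call. The 3 features nearest to ste11 and to mei2 were named as well. Other genes given with values were chosen after their values were seen. They were fus1, cgs2, pka1, mmi1, isp7, matmc, rad24, cpc2, dim genes of the Mmi1 machinery, the mating-type markers and adjacent genes. Alternatives were plain subtraction, offset 0, print-tip loess, median centring, mean signals, code 3 kept, the deposited values, well-measured features only, each array alone, and, added after seeing the data, each printed set alone.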

Additional observations from a re-analysis of the deposited data

How the results depend on the processing

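The count of features called depended strongly on the processing, for which the cause was not tested, while the ratios of the bright members moved little. Against 117 higher and 49 lower as reported, the counts were 49 and 11 with plain subtraction, 211 and 189 with print-tip loess, 33 and 5 with median centring, 201 and 181 with mean signals, 164 and 104 with code 3 kept, 162 and 147 with well-measured features only, 74 and 28 with the first printed set and 72 and 23 with the second. With the authors' deposited values limma called 0 and 0, although 592 features and 7 members had an unadjusted p under 0.05; 46 features had identical rounded values on both arrays there, and the prior contributed 2.72 degrees of freedom. The share of calls that were higher, 70.5% as reported, was 52.8% with print-tip loess, 52.6% with mean signals, 52.4% with well-measured features, 61.2% with code 3 kept, 81.7% with plain subtraction and 86.8% with median centring.

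Of the 9 members, 5 were called higher as reported, against 3 with median centring and 3 with the second printed set, where isp3 had no value, and 0 with the deposited values; with print-tip loess rep1 was called as well. No member was called lower in any setting run. Among list genes, 8 higher became 3 with plain subtraction, 13 with print-tip loess, 0 with median centring and 0 with the deposited values, and 1 was lower with code 3 kept (spo15, adjusted p = 0.0495). Of 164 values of 17 named list genes under the other settings, 26 lost a call, 4 gained one and 2 changed sign, both of mde7 (-0.023 with median centring and -0.0438 with mean signals). No paired analysis was possible because each array already holds both strains. Each array alone gives a value and no test. The planned count of promoter motifs was not run.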

Other observations

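Normalisation weighed most on the dim members. The mean shift from raw to normalised log2 ratio was 1.33 on array 1 and -0.47 on array 2 for ste11, and 1.19 and -0.58 for mei2. For rem1 it was 1.66 and -2.25, for isp3 1.72 and -1.96, for pat1 2.18 and -2.69 and for rep1 4.38 and -3.82. For ste7 it was 1.61 and -1.83, and for the bright gene mei3 1.45 and -0.43, against mei3 ratios of 0.09 and 0.24. In the genes rep1 and ste4 the shift exceeded the resulting ratio several fold. It also exceeded the ratio on both arrays in mei3, pat1 and rem1, so this was not confined to dim genes. The shift had opposite sign on the dye-swapped arrays in every member.

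The authors' deposited table, which was normalised separately, gave ste11 a ratio of 1.88-fold on both arrays and mei2 6.92-fold and 7.0-fold. It gave ste7 5.01-fold and 7.67-fold and rem1 3.51-fold and 3.76-fold, against fitted folds of 4.27 and 2.77 here; the wild type of both was below the background limit. For mei3 it gave 1.06-fold and 1.17-fold.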
